A study of Mus musculus with 6 samples.

Results

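The annexins are a family of cytosolic proteins that bind negatively charged membrane phospholipids when calcium rises. The genes described here are Anxa1, Anxa2, Anxa3, Anxa4, Anxa5, Anxa6, Anxa7 and Anxa11, chosen by symbol, 8 of the 15845 genes in the deposited count table. They were picked with earlier results of the same comparison known, which count as the values that chose them. Every difference between the treatment groups is therefore given as a description of these libraries. Where a count of genes called by a fit is printed, it stands beside the share of all tested genes and supports nothing about the annexins. Of the 12 annexin genes of the mouse, Anxa9 was also counted, and Anxa8, Anxa10 and Anxa13 had no row in the table and were not analysed here.

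The libraries were made from mouse bone marrow LSK cells, the lineage-negative fraction sorted for both Sca1 and c-Kit, which holds blood stem cells and early multipotent progenitors. All mice were C57BL/6 with the genotype Mx1Cre; Jak2VF/VF, so the controls carry the same homozygous Jak2V617F allele and the same interferon-responsive Cre transgene as the treated mice. The vehicle group (PBS) and the TP-3654 group (a PIM kinase inhibitor, 150 mg/kg/day) were each treated for 6 weeks and have 3 libraries, called biological replicates by the submitters. There is no group with wild-type Jak2, the LSK sort mixes several progenitor types, and neither the age of the mice nor the time after Cre induction is given in the sources used here.

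Annexins share a core of repeated helical domains that hold calcium against the membrane, and differ in the N-terminal tail that binds partner proteins. Annexin A2 forms a complex with S100A10, annexin A1 is a ligand of formyl peptide receptors released by myeloid cells, annexin A3 is abundant in neutrophils, and annexin A5 binds phosphatidylserine exposed on dying cells. The family is known for roles in membrane repair, vesicle traffic and the control of inflammation.

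Sequence before the transcription start was available from RefSeq (GRCm38.p6) for 6 of the 8 genes, with Anxa3 and Anxa6 having no entry. The 250 bases before the start are shown for 3 genes whose libraries separated by group, to set the promoters of members that differed in opposite directions side by side: Anxa2 (lower with TP-3654) and Anxa4 and Anxa11 (higher). Capitals mark matches, on either strand, to the TATA box (TATAAA), the AP-1 motif (TGANTCA), the C/EBP motif (TTGCNNAA), the STAT motif (TTCNNNGAA), the GC box (GGGCGG) and the RUNX motif (TGTGGT).
Anxa2, chr9:69453433-69453682, plus strand: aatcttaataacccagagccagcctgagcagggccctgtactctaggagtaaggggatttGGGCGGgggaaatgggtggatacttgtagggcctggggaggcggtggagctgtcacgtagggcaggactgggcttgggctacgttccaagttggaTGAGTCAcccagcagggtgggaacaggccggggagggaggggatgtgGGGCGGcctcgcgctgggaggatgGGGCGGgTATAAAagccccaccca
Anxa4, chr6:86793585-86793834, minus strand: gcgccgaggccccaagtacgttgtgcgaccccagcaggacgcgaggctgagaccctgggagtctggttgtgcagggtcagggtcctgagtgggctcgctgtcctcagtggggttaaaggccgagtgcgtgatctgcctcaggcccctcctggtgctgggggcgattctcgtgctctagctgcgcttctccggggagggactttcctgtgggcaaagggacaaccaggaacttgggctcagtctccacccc
Anxa11, chr14:25841905-25842154, plus strand: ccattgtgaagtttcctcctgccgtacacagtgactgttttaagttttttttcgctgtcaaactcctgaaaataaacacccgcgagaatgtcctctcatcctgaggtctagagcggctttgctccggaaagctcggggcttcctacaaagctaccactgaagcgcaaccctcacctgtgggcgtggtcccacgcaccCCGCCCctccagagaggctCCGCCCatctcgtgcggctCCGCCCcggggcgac

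The Anxa2 window held a TATA box beginning 17 bases before the start, an AP-1 match beginning 95 bases before it and 3 GC boxes. These distances are to the RefSeq start. The GENCODE start of Anxa2 (69453620) lies inside the window, with the AP-1 match before it and the TATA box after it. Among all 32851 RefSeq promoter windows of this length, 12.4% held the TATA letters, 6.75% the AP-1 letters and 32.7% the GC box. The Anxa11 window held 3 GC boxes and the Anxa4 window held no match to the 6 motifs. Anxa4 has a second annotated start, and its window (not printed) held a C/EBP match, which 9.56% of all windows hold. The Anxa1 window held a TATA box beginning 32 bases before its RefSeq start and a C/EBP match. By the GENCODE start of Anxa1 (20390944, minus strand) that whole window lies inside the gene. A match is a run of letters and says nothing of whether a factor binds there.

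Library totals ran from 20582057 to 25315596 counts, and the 8 annexins were counted 444 to 4112 times per library, far above the 3 counts (0.116 to 0.153 CPM) taken as the limit of detection. CPM are counts scaled to a common library total, with the TMM correction for library make-up. The sort marker genes Kit and Ly6a, which encode c-Kit and Sca1, were counted in all 6 libraries. Kit differed between the groups, at 365, 377 and 375 CPM in vehicle and 436, 492 and 581 CPM with TP-3654 (log2 fold change 0.43). Ly6a overlapped between them, at 40.0 to 69.2 CPM over all libraries. Pim1, which encodes a target of the inhibitor, overlapped between the groups at 353 ± 57.0 and 429 ± 111 CPM (SD, n = 3). Markers of myeloid progenitors and mature neutrophils varied among the libraries and are given beside Anxa3. Whether they follow Anxa3 was not tested.

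Every TP-3654 library had less Anxa3 and less Anxa2 than the lowest vehicle library, and Anxa4 and Anxa11 stood higher. Anxa1, Anxa5, Anxa6 and Anxa7 overlapped between the groups. The edgeR quasi-likelihood test called 0 of the 8 annexins at an FDR of 0.05, where it called 0 of 13149 tested genes (0%). At an unadjusted p under 0.05 it placed 2 annexins higher and 2 lower, where 10.2% and 6.84% of all tested genes lay. Groups that do not overlap were found for 4 of 8 annexins and for 25.9% of all tested genes (14.3% higher and 11.6% lower). Because the comparison had been seen when the genes were chosen, nothing is read from these shares. The median log2 fold change of the 8 was -0.13, against 0.01 for all tested genes.

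**Figure D1:**
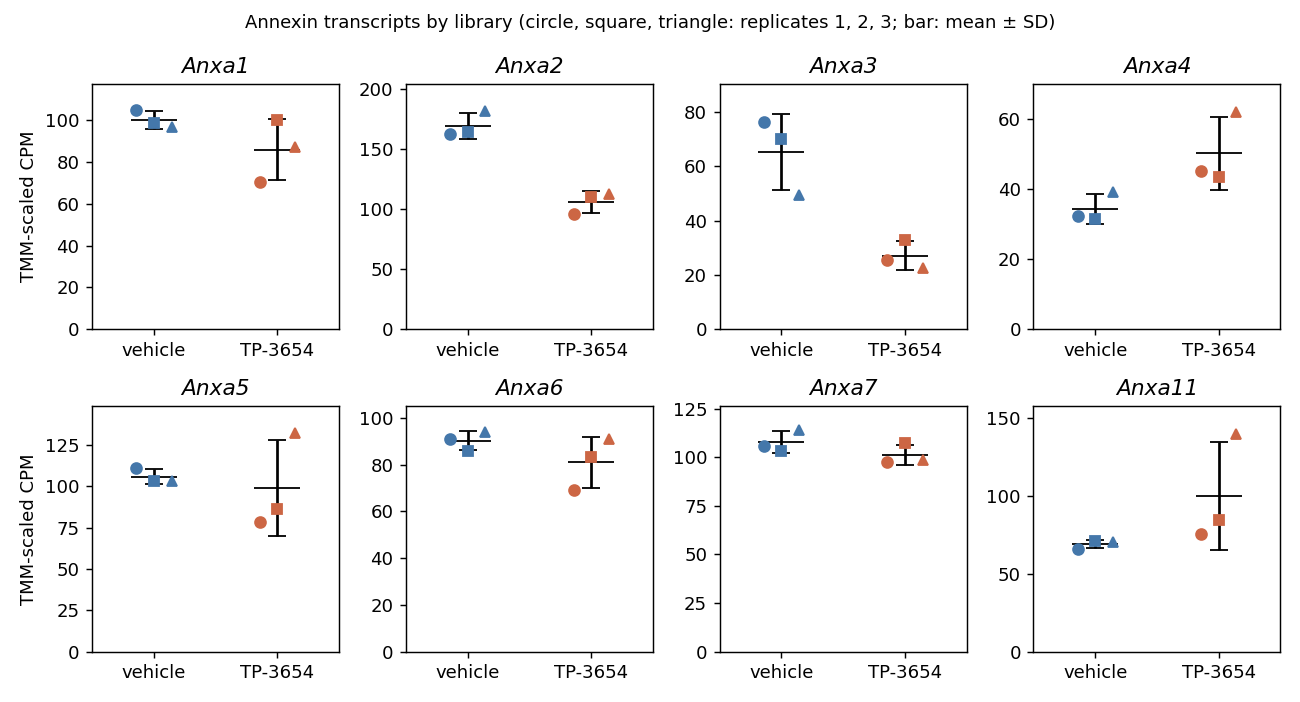
TMM-scaled CPM (vertical axes, from 0) of each annexin gene in the 3 vehicle and 3 TP-3654 libraries, with one point per library and the mean ± SD of each group. The groups are apart for Anxa2, Anxa3, Anxa4 and Anxa11 and overlap for the other 4 genes, and TP-3654 replicate 3 (triangle) is the highest library for Anxa4, Anxa5 and Anxa11.

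Anxa3 (Entrez 11745, chromosome 5, 96793339 to 96845966 on the plus strand of GRCm38) encodes the annexin best known from the granules and membranes of neutrophils. Its level was 76.4, 70.0 and 49.5 CPM in vehicle replicates 1 to 3, and 25.4, 33.0 and 22.7 CPM in TP-3654 replicates 1 to 3. The lowest vehicle library thus stood above the highest treated one, although the vehicle libraries themselves spread 1.54-fold. The group means were 65.3 ± 14.0 and 27.0 ± 5.35 CPM (SD, n = 3), a level 2.41-fold lower with TP-3654 (log2 fold change -1.27, SE 0.20). Of all tested genes, 1.14% had a lower log2 fold change. Leaving out 1 library at a time gave log2 fold changes from -1.44 to -1.14.

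Of 14 tested myeloid progenitor markers, 13 had a log2 fold change below 0, where 6297 of 13149 tested genes did. The summed level of the list over 14 counted genes of 15 listed (Azu1 has no row) ran from 12070 to 15210 CPM in vehicle and from 3807 to 9158 CPM in TP-3654 libraries. By edgeR 0 of the 14 passed over all genes, while 10 were lower and 0 higher at an unadjusted p under 0.05. Among all tested genes 6.84% were lower and 10.2% higher by that measure. DESeq2 called 6 of the 14 lower, where it called 1.92% of its genes lower. The group means of Mpo, which encodes the granule enzyme myeloperoxidase, were 7484 ± 797 and 2839 ± 1642 CPM (SD, n = 3), and the groups were also apart for Ctsg (1084 ± 56.4 and 438 ± 216), Cebpa (161 ± 8.58 and 88.4 ± 27.5), Hk3 (357 ± 19.4 and 209 ± 33.9) and Clec12a (150 ± 48.0 and 66.5 ± 14.9). The groups overlapped for Elane (log2 fold change -1.73), Gfi1 (-0.51) and Cd34 (0.16), and Cd34, which encodes a surface marker of progenitors, was the marker above 0. In these sorted populations fewer cells of a type and less RNA per cell cannot be told apart. The part of these markers in the Anxa3 difference was not tested.

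The summed level of mature neutrophil and monocyte markers was highest in vehicle replicate 1. The 16 genes together had 597 CPM there, 340.1 and 312 CPM in vehicle replicates 2 and 3, and 265 to 383 CPM with TP-3654. That library had 39.0 CPM of the calgranulin gene S100a8, against 0.450 and 0.458 CPM in vehicle replicates 2 and 3. The TP-3654 libraries ranged from 0.463 to 9.21 CPM. The neutrophil surface gene Ly6g was at 0 in 4 of all 6 libraries and at most 0.158 CPM. The receptor genes Csf3r (308 CPM in TP-3654 replicate 3) and Cxcr2 (28.7 CPM in TP-3654 replicate 2) were instead highest in treated libraries. The mean of Cxcr2 was still lower with TP-3654 (26.4 ± 1.13 and 18.6 ± 9.51 CPM, SD, n = 3). Of 10 tested genes of the list, 9 had a log2 fold change below 0 (median -1.24), where 6297 of 13149 tested genes did. By edgeR 0 passed over all genes and 1 was lower at an unadjusted p under 0.05 (6.84% of all tested genes). DESeq2 called 1 lower (1.92% of its genes). Vehicle replicate 1 was also the highest library for Anxa3, and without it the log2 fold change of Anxa3 was -1.14.

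The genes whose profile over the 6 libraries lay closest to that of Anxa3, by the root mean square difference in log2 CPM after centring each gene, were Abcd2 (0.118), Chdh (0.126) and Pglyrp1 (0.127), among 11007 genes compared. Abcd2 encodes a peroxisomal fatty acid transporter, Chdh the mitochondrial choline dehydrogenase and Pglyrp1 a granule protein that binds bacterial cell walls. All 3 stood lower with TP-3654, with log2 fold changes of -1.21, -1.24 and -1.13. Genes chosen for likeness to Anxa3 over these same libraries share its group difference by that choice, so these values are not a separate result. Abcd2 shared the order of the libraries with Anxa3, from 27.7, 21.5 and 16.6 CPM in vehicle to 8.14, 12.9 and 7.36 CPM with TP-3654.

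Anxa2 (Entrez 12306, chromosome 9, 69453620 to 69491795, plus strand) encodes the annexin that, with S100A10, anchors plasminogen and its activator at the cell surface. It was counted most of the 8 in every vehicle library, at 162, 164 and 181 CPM, and stood at 95.5, 109.7 and 113 CPM with TP-3654. The groups were far apart relative to their spread, with SDs of 10.7 and 9.27 CPM around means of 169 and 106 CPM (n = 3). The level was 1.60-fold lower with TP-3654 (log2 fold change -0.67, SE 0.11), and 4.55% of tested genes had a lower log2 fold change. Without 1 library in turn the log2 fold change stayed between -0.73 and -0.60. The closest profiles were those of Abca8b (root mean square difference 0.0785), Cyba (0.0966), a subunit of the phagocyte NADPH oxidase, and B4galnt1 (0.0999), an enzyme of ganglioside synthesis. Abca8b is thinly counted, at 1.43 to 3.03 CPM.

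S100a10, which encodes the light chain of the annexin A2 complex, stood at 139, 141 and 172 CPM in vehicle and at 119, 139 and 98.6 CPM with TP-3654. Its groups overlapped, since TP-3654 replicate 2 (138.8 CPM) lay just above vehicle replicate 1 (138.6 CPM). The log2 fold change was -0.34 (SE 0.15). The ratio of Anxa2 to S100a10 CPM, whose scale depends on the lengths of both transcripts but which can be compared between libraries, was 1.17, 1.16 and 1.05 in vehicle and 0.802, 0.791 and 1.15 with TP-3654. TP-3654 replicate 3, where S100a10 was lowest, had a ratio within the vehicle range.

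Anxa4 (Entrez 11746, chromosome 6, 86736840 to 86793584, minus strand), which encodes a membrane-ordering annexin of epithelia, was the least counted of the 8 in vehicle. Its level was 32.4, 31.3 and 39.2 CPM in vehicle and 45.1, 43.5 and 62.2 CPM with TP-3654. The groups did not overlap, and the TP-3654 library with the highest value, replicate 3, stood well apart from the other two. The level was 1.46-fold higher with TP-3654 (log2 fold change 0.55, SE 0.17). Without TP-3654 replicate 3 the log2 fold change was 0.36.

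Anxa11 (Entrez 11744, chromosome 14, 25842156 to 25886804, plus strand), whose product tethers RNA granules to lysosomes, stood at 66.2, 71.1 and 70.5 CPM in vehicle. In TP-3654 libraries it was at 75.8, 84.4 and 139.9 CPM. One library, TP-3654 replicate 3, carried most of this difference. The log2 fold change was 0.53 (SE 0.22) with all libraries and 0.20 without TP-3654 replicate 3. That library, the highest for Anxa4, Anxa5 and Anxa11, also stood apart in markers of other cell types. The summed mast cell and basophil markers were at 301 CPM there and at 611 to 797 CPM in the other 5 libraries. Among these, the basophil protease gene Prss34 was at 7.26 CPM against 84.6 to 179 CPM, and Mcpt8 at 20.2 against 88.4 to 126 CPM. The erythroid transcription factor gene Klf1 was at 5.88 CPM against 46.2 to 97.7 CPM, Ermap at 8.23 against 59.9 to 162 CPM and Car1 at 36.6 against 218 to 426 CPM. The globin genes Hba-a1 (332 CPM) and Hbb-bt (205 CPM) were instead high in that library, below only TP-3654 replicate 1 (421 and 239 CPM). The summed erythroid list (1258 CPM) lay within the range of the other libraries (1230 to 2607 CPM). The part of these cell types in the levels of Anxa4, Anxa5 and Anxa11 was not tested. Of the 31-base words of its annotated transcripts, 17.2% also occur in other loci, among them the predicted genes Gm2260 and Gm2274 and the antisense gene Anxa11os, so its counts are uncertain. The other 7 genes shared at most 4.42% of such words.

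**Figure D2:**
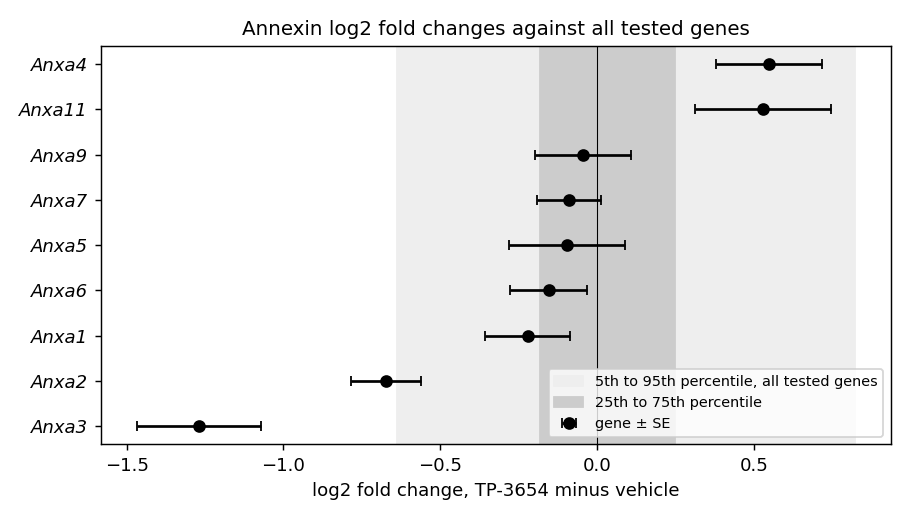
Log2 fold change of each counted annexin, TP-3654 minus vehicle, with its SE, over grey bands that hold the middle of all tested genes (25th to 75th percentile, -0.18 to 0.25, and 5th to 95th percentile, -0.64 to 0.82). Anxa3 and Anxa2 lie below the outer band, Anxa4 and Anxa11 lie between the bands' upper edges, and the other 5 lie at or near the inner band.

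Anxa5 (Entrez 11747, chromosome 3, 36448923 to 36475894, minus strand) encodes the annexin used to stain phosphatidylserine on dying cells. Its vehicle libraries stood within a narrow range at 111, 103 and 103 CPM, and its TP-3654 libraries at 78.3, 86.5 and 132 CPM. Replicates 1 and 2 of TP-3654 lay below all vehicle libraries and replicate 3 above them. The log2 fold change was -0.10 (SE 0.19) over all libraries. Dropping TP-3654 replicate 3 gave -0.37, and dropping TP-3654 replicate 1 gave 0.05.

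Anxa1 (Entrez 16952, chromosome 19, 20373428 to 20390944, minus strand), the glucocorticoid-induced annexin, stood at 105, 98.5 and 97.0 CPM in vehicle and at 70.6, 99.97 and 87.4 CPM with TP-3654. Only TP-3654 replicate 2 reached the vehicle range. The log2 fold change was -0.22 (SE 0.14). Its closest profiles were those of Sort1 (root mean square difference 0.0578), the sorting receptor sortilin, Cd300a (0.0582), an inhibitory receptor that binds phosphatidylserine, and Cmpk1 (0.0630), a nucleotide kinase. The formyl peptide receptor genes Fpr1 and Fpr2, whose products bind annexin A1, were too low to be tested. Fpr1 was at 0 in 4 of 6 libraries, and Fpr2 was highest at 1.70 CPM in vehicle replicate 1.

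Anxa6 (Entrez 11749, chromosome 11, 54979108 to 55033445, minus strand), the long member with a doubled core, stood at 91.0, 85.8 and 93.8 CPM in vehicle and at 69.2, 83.2 and 90.8 CPM with TP-3654. The log2 fold change was -0.15 (SE 0.12). Anxa7 (Entrez 11750, chromosome 14, 20455260 to 20480133, minus strand), also called synexin, varied least between treated libraries, at 97.7, 107 and 98.7 CPM against 106, 103 and 114 CPM in vehicle. Its log2 fold change was -0.09 (SE 0.10). Anxa9, whose product has lost calcium-binding sites and whose exons overlap those of Mindy1 on the other strand, stood at 24.0 to 31.7 CPM in vehicle and at 23.8 to 28.0 CPM with TP-3654.

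Levels of different genes were compared per kilobase of annotated exon. In vehicle, Anxa5 stood highest at 59.5 ± 2.56 CPM per kb (SD, n = 3), followed by Anxa2 at 45.3 ± 2.87, Anxa1 at 34.4 ± 1.49 and Anxa6 at 30.8 ± 1.39. Anxa7 (18.0 ± 0.922), Anxa3 (17.9 ± 3.85) and Anxa11 (16.8 ± 0.654) came next and Anxa4 was lowest at 7.39 ± 0.920. Anxa3 overlapped both of its neighbours, while the lowest vehicle library of Anxa7 (17.25) lay just above the highest of Anxa11 (17.21). The vehicle libraries of each of the 4 leading genes did not overlap those of the next.

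With TP-3654 the order was Anxa5 (55.7 ± 16.3 CPM per kb), Anxa1 (29.5 ± 5.06), Anxa2 (28.4 ± 2.49), Anxa6 (27.7 ± 3.74), Anxa11 (24.2 ± 8.41), Anxa7 (16.9 ± 0.865), Anxa4 (10.8 ± 2.23) and Anxa3 (7.42 ± 1.47). Anxa1, Anxa2, Anxa6 and Anxa11 overlapped in these libraries. Anxa3 moved from the sixth place to the last, below Anxa4, with no overlap between the 2 genes in the treated libraries (6.23 to 9.06 against 9.36 to 13.4 CPM per kb). Per kilobase of the longest annotated transcript, Anxa2 in vehicle (74.2 ± 4.69) came before Anxa5 (61.1 ± 2.63), and Anxa3 (40.9 ± 8.79) before Anxa6 (36.2 ± 1.63), so these places depend on the length used. On that length the treated libraries of Anxa3 and Anxa4 overlapped (14.2 to 20.7 against 16.6 to 23.7 CPM per kb).

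**Figure D3:**
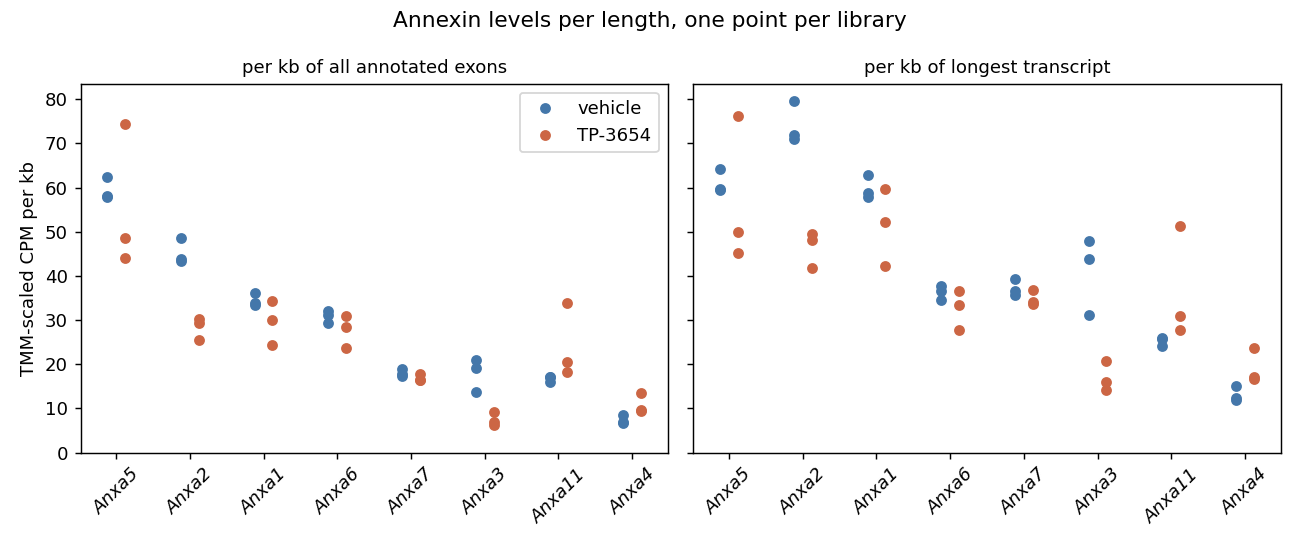
TMM-scaled CPM per kb of exon (left) or of the longest annotated transcript (right) for each annexin, one point per library, vehicle in blue and TP-3654 in orange. In both panels the Anxa2 and Anxa3 points are lower with TP-3654, and Anxa4 is the lowest gene in vehicle.

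The make-up of the family shifted while its sum overlapped between the groups. The 8 genes together had 750.0, 727 and 749 CPM in vehicle and 558, 647 and 746 CPM with TP-3654. Anxa2 held 21.6 to 24.2% of these counts in vehicle and 15.1 to 17.1% with TP-3654, and Anxa3 held 6.62 to 10.2% and 3.04 to 5.10%. The share of Anxa11 went the other way, from 8.82 to 9.79% in vehicle to 13.0 to 18.7% with TP-3654, and that of Anxa4 from 4.31 to 5.24% to 6.71 to 8.33%. The shares of Anxa1, Anxa5, Anxa6 and Anxa7 overlapped between the groups. As shares of one sum, these values are not independent of each other. The Anxa2 to Anxa4 ratio of CPM was 4.95 ± 0.304 in vehicle and 2.15 ± 0.355 with TP-3654 (SD, n = 3).

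**Figure D4:**
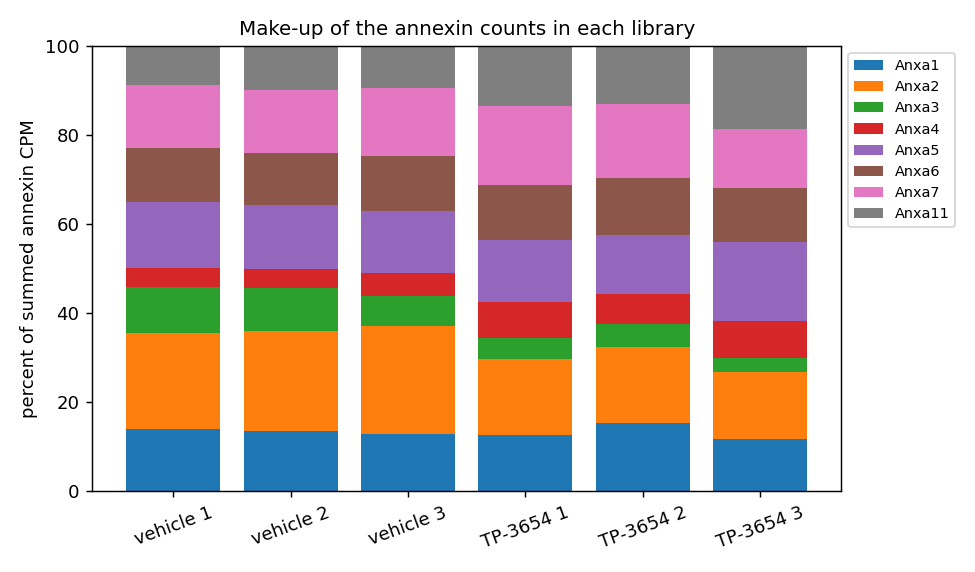
Percent of the summed annexin CPM (vertical axis, 0 to 100) held by each of the 8 genes in each library. The Anxa2 and Anxa3 segments are narrower and the Anxa4 and Anxa11 segments wider in all 3 TP-3654 libraries than in the vehicle libraries.

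The spread within a group also differed between members. In vehicle the coefficient of variation was 3.91 to 6.32% for Anxa1, Anxa2, Anxa5, Anxa6, Anxa7 and Anxa11, 12.4% for Anxa4 and 21.5% for Anxa3. With TP-3654 it was 34.8% for Anxa11, 29.2% for Anxa5, 20.6% for Anxa4, 19.8% for Anxa3, 17.1% for Anxa1 and 13.5% for Anxa6. It stayed at 8.75% for Anxa2 and 5.12% for Anxa7. TP-3654 replicate 1 was the lowest treated library for Anxa1, Anxa2, Anxa5, Anxa6, Anxa7 and Anxa11, and it had the smallest annexin sum.

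Genes around the annexins were read from lists of fixed membership. Of 13 annexin-binding partners, 11 were tested. By edgeR 0 passed over all genes, and at an unadjusted p under 0.05 it placed 2 higher and 1 lower, beside 10.2% and 6.84% of all tested genes. DESeq2 called 0 of them, and the median log2 fold change was -0.0048. The kinase gene Prkca stood at 21.5 ± 2.87 and 31.6 ± 5.15 CPM (SD, n = 3). Pla2g4a, the cytosolic phospholipase A2 that annexin A1 can inhibit, stood at 74.7 ± 11.9 and 97.8 ± 8.28 CPM. The lower gene was S100a10.

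Of 24 genes for other calcium-dependent lipid-binding proteins with C2 domains, 16 were tested, 2 were higher and 0 lower at an unadjusted p under 0.05 by edgeR (10.2% and 6.84% of all tested genes), and 0 passed over all genes. The copine gene Cpne8 was thinly counted, at 1.08 ± 0.411 CPM in vehicle and 3.64 ± 0.159 CPM with TP-3654. It was the 1 gene of this list that DESeq2 called, where DESeq2 called 4.92% of its genes in either direction. The ferlin gene Myof, whose product acts in membrane fusion and repair, stood at 11.8 ± 3.52 and 19.4 ± 1.32 CPM. The list's median log2 fold change was 0.06.

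Of 26 genes for phosphatidylserine exposure and recognition, 18 were tested. By edgeR 0 passed over all genes, and 2 were higher and 0 lower at an unadjusted p under 0.05, with 10.2% and 6.84% of all tested genes in those classes. The scramblase family gene Plscr2 stood at 7.57, 13.3 and 8.07 CPM in vehicle and at 17.9, 33.1 and 25.3 CPM with TP-3654. It was the 1 gene of this list that DESeq2 called, where DESeq2 called 4.92% of its genes in either direction. Gas6, the bridging ligand of the TAM receptors, stood at 1.19 ± 0.219 and 2.13 ± 0.570 CPM. The list's median log2 fold change was 0.17, with 14 of 18 above 0, where 6852 of 13149 tested genes were.

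Of 24 membrane repair genes (ESCRT, calpain and related genes), 22 were tested. By edgeR 0 passed over all genes, and at an unadjusted p under 0.05 it placed 2 higher (Myof and the calpain gene Capn2, log2 fold change 0.49) and 3 lower, where all tested genes gave 10.2% and 6.84%. DESeq2 called 0 of them. The lower genes were Ehd1 (-0.45) and Ehd2 (-0.91), which encode membrane-remodelling ATPases, and the ESCRT-III gene Chmp4b (-0.26), named after its value was seen. Of 10 plasminogen system genes 4 were tested, with a median log2 fold change of -0.47, which ran from -0.64 to -0.26 when 1 library was left out (-0.26 without TP-3654 replicate 3). The urokinase gene Plau stood at 3.94, 2.43 and 2.98 CPM in vehicle and at 1.34, 1.94 and 1.23 CPM with TP-3654, and 0 of the 4 passed over all genes by edgeR or DESeq2.

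In the authors' deposited table of the same comparison, Anxa3 (log2 fold change -1.35, adjusted p = 0.00175) and Anxa2 (-0.85, adjusted p = 0.0141) were called lower at 0.05, where that table calls 5.32% of its genes (2.48% lower). DESeq2 on the deposited counts of all 6 libraries also called Anxa2 and Anxa3 lower, where it called 4.92% of genes (1.92% lower). The authors' deposited table gives Anxa5 a log2 fold change of -0.33, Anxa6 -0.37 and Anxa11 0.13. On the deposited counts DESeq2 gave -0.11, -0.17 and 0.52 for these genes with all 6 libraries, and -0.37, -0.26 and 0.20 without TP-3654 replicate 3.

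**Figure D5:**
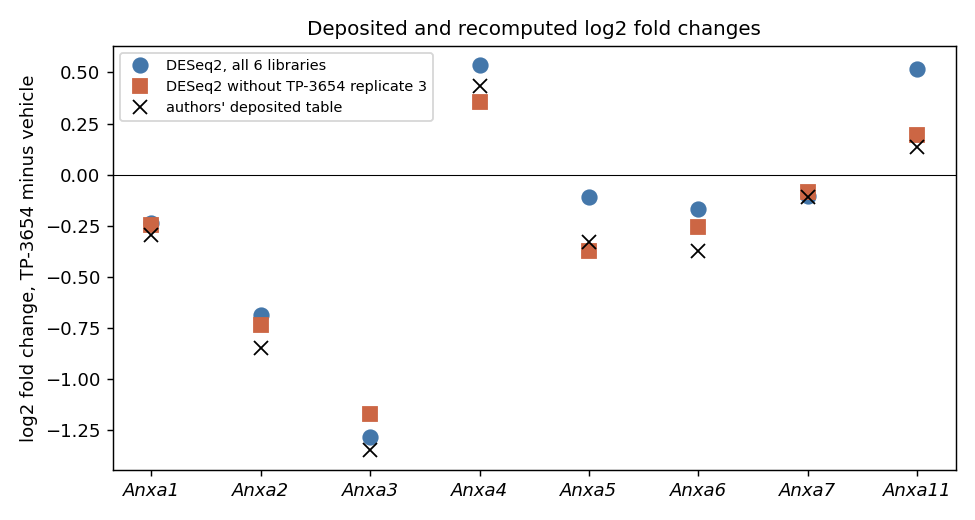
Log2 fold change (TP-3654 minus vehicle, vertical axis) of each annexin from DESeq2 on all 6 libraries (circles), from DESeq2 without TP-3654 replicate 3 (squares) and in the authors' deposited table (crosses). For Anxa1, Anxa2, Anxa4, Anxa5, Anxa6 and Anxa11 the deposited value lies closer to the fit without that library, and for Anxa3 and Anxa7 closer to the fit on all 6.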

How the data were processed

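The authors deposited whole-number read counts per Entrez gene for 6 libraries, with no normalization, and a results table. Per the file headers, the deposited results table holds a mean signal (normalized counts over the libraries), log2 fold changes, their standard errors, a Wald score, and raw and adjusted p-values. The submitters' processing notes name HISAT2 2.1.0, SAMtools 1.9.0, DESeq2, mm10 and GRCm38. How reads were counted, on which annotation and with which strand setting, is not given in the sources used here, so antisense and overlapping genes cannot be told apart.

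Symbols came from the deposited table (12995 genes) and RefSeq of GRCm38.p6 (2844), and 6 genes had none. Coordinates and exon lengths came from a GENCODE annotation of GRCm38. Counts were tested with edgeR 4.0.16 (R 4.3.3): TMM, filterByExpr (13149 genes kept, 0.067% of counts removed), a robust quasi-likelihood fit and Benjamini-Hochberg adjustment over all tested genes. The SE is the size of the log2 fold change divided by the root of F. P-values measure the spread between 3 libraries per group. Alternatives were DESeq2 1.42.0, limma-voom (limma 3.58.1), other scalings and filters, a non-robust fit, a replicate block and leaving out each library. On simulated counts of 13040 genes for this comparison, edgeR called 56 of 100 genes changed 2-fold, 97 of 100 changed 4-fold and 15 of 12840 unchanged. The changed genes were drawn from well-counted ones. Each gene was simulated independently, with no departure shared by many genes of 1 library, so these shares need not hold for the real libraries.

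The annexins and the gene lists were chosen with earlier results of these data known. The naming rule takes all 8 annexins, Anxa9, up to 4 genes per list with the smallest p, the 3 closest profiles of Anxa1, Anxa2 and Anxa3 (mean log2 CPM of at least 1, no predicted genes), Kit, Ly6a, Pim1 and Lgals1. Lgals1 and many of the smallest-p genes of the lists are not described. Mpo, Elane, Gfi1, Cd34, S100a8, Ly6g, Csf3r, Cxcr2, Fpr1, Fpr2, Prss34, Mcpt8, Klf1, Ermap, Car1, Slamf1, Gata2 and Hoxa9 were named after their values were seen. Of these, Cd34, Csf3r and Slamf1 also meet the rule.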

Additional observations from a re-analysis of the deposited data

How the results depend on the processing

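With edgeR on all 6 libraries 0 genes were called. The count was 657 with DESeq2, 5 with no low-count filter, 0 with limma-voom, 0 to 31 without 1 library, and 2244 genes had an unadjusted p under 0.05. Among the 8 annexins the count was 2 with DESeq2 (Anxa2 and Anxa3) and 0 to 1 without 1 library: Anxa3 without TP-3654 replicate 2 and Anxa2 without TP-3654 replicate 3. Same-numbered libraries deviated from their group means with correlations of 0.0297, -0.047 and 0.0185, so the numbers were not taken as pairs. With the replicate block 3 genes and 0 annexins were called. Of 120 recomputed annexin fold changes 1 changed sign (Anxa5, 0.05 without TP-3654 replicate 1) and 0 moved by more than the spread between replicates. That spread includes the library left out, so leaving out 1 library could hardly count as a move. Nothing about stability is therefore read from the 0. Anxa11 counted as not moved, although its log2 fold change went from 0.53 to 0.20 without TP-3654 replicate 3, its highest library. Without 1 library the annexin median ran from -0.25 to -0.06, that of the partner genes from -0.1071 to 0.044, that of the C2-domain genes from -0.0177 to 0.1328, that of the repair genes from -0.1255 to -0.0314, that of the phosphatidylserine genes from 0.14 to 0.26 and that of the plasminogen genes from -0.64 to -0.26. Depth did not limit the annexin values, which rest on at least 444 counts.

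Levels per kb in vehicle depend on the length used. With the longest transcript they were 59.9 for Anxa1, 74.2 for Anxa2, 40.9 for Anxa3, 13.1 for Anxa4, 36.2 for Anxa6, 37.1 for Anxa7 and 25.3 for Anxa11. With the mean of TP-3654 in place of vehicle they were 29.5 for Anxa1, 28.4 for Anxa2, 7.42 for Anxa3, 10.8 for Anxa4, 55.7 for Anxa5, 27.7 for Anxa6, 16.9 for Anxa7 and 24.2 for Anxa11 per kb of exon.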

Other observations

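Fold changes in the authors' deposited table were set beside DESeq2 fits on the deposited counts, over 9960 genes with a mean log2 CPM of at least 3. The median absolute difference in log2 fold change was 0.0677 for the fit on all 6 libraries, with 66.5% of genes within 0.1, and 0.0344 for the fit without TP-3654 replicate 3, with 90.3% within 0.1. Neither fit returned the deposited values exactly, and how the deposited table was made was not tested. The fit without that library was chosen after the data were seen. It is the library in which Anxa4, Anxa5 and Anxa11 were highest.

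Of 15 tested stem cell markers, 12 had a log2 fold change above 0 and 3 below it. Of all 13149 tested genes 6852 were above 0. By edgeR 8 were higher and 0 lower at an unadjusted p under 0.05, where 10.2% and 6.84% of tested genes were. The median log2 fold change was 0.63. In edgeR 0 passed over all genes. DESeq2 called 8 of them higher and 0 lower, where it called 4.92% of its genes in either direction, counting the 1.92% of its genes that were lower. The markers below 0 were Slamf1 (-0.35), whose TP-3654 libraries all lay below the vehicle libraries, and Gata2 (-0.29) and Hoxa9 (-0.03), whose groups overlapped. The transcription factor gene Hlf stood at 71.9, 50.9 and 76.9 CPM in vehicle and at 132, 119 and 127 CPM with TP-3654. Meis1 stood at 118, 110.0 and 143 CPM and at 187, 188 and 198 CPM. Of 11 tested mast cell and basophil markers, 11 had a log2 fold change below 0, where 6297 of 13149 tested genes did. By edgeR 3 were lower at an unadjusted p under 0.05 (6.84% of all tested genes), and 0 passed over all genes. DESeq2 called 2 of them lower, where it called 1.92% of its genes lower. The mast cell carboxypeptidase gene Cpa3 stood at 88.1 ± 5.09 and 62.9 ± 17.9 CPM (SD, n = 3).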
